A study of Mus musculus with 12 samples.

Results

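Aminoacyl-tRNA synthetases are the enzymes that join each amino acid to its transfer RNA. Their transcripts were followed in SCA1+ fibroblasts sorted from the back skin of mice, unwounded or wounded. The members were taken by gene symbol alone: the 1-letter code of an amino acid followed by "ars", with or without a final 1 or 2, together with Eprs, Farsa, Farsb and Tarsl2. This rule took 37 of the 25239 genes in the deposited count table. Of these, 21 encode cytosolic enzymes (Aars, Cars, Dars, Eprs, Farsa, Farsb, Gars, Hars, Iars, Kars, Lars, Mars1, Nars, Qars, Rars, Sars, Tars, Tarsl2, Vars, Wars and Yars) and 16 encode mitochondrial ones (among them Aars2, Cars2, Ears2, Hars2, Iars2, Lars2, Mars2, Nars2, Pars2, Rars2, Sars2, Tars2, Vars2, Wars2 and Yars2). All 37 passed the filter on low counts. Gars and Kars are counted as cytosolic here, although each gene gives rise to both the cytosolic and the mitochondrial enzyme.

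The cells came from male, wild-type C57BL/6 mice of 8 weeks and were sorted as live, CD45-, CD31- and SCA1+ after digestion of the tissue. The comparison was between skin without a wound (NW) and wounds through the full skin made with a 4 mm punch, which were harvested 16 h, 1.5 d or 3 d later. There were 3 libraries in each of the 4 groups, each from a separate mouse, so the spread between libraries is a spread between mice. No transgene or deletion was involved, and the sort on SCA1, which only some skin fibroblasts carry, is what limits the population. In bulk RNA, fewer cells of a type and less RNA per cell cannot be told apart.

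A synthetase reads its amino acid and its tRNA, and so fixes the genetic code at the step before the ribosome. The enzymes fall into 2 unrelated structural classes, I and II. In animal cells several cytosolic synthetases are held together, with 3 scaffold proteins, in the multisynthetase complex. Mitochondria translate their own small set of messages and, for most amino acids, import a separate synthetase from a second nuclear gene. In mammals many cytosolic synthetase genes are known targets of ATF4, the transcription factor made when the kinase GCN2 senses uncharged tRNA or when other stress kinases phosphorylate eIF2. Growth signals and MYC are also known to act on these genes.

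One sequence shared by several members is shown here because the levels of its carriers are given further on. A composite element read by ATF4 with a C/EBP partner (searched as TGATGNAA on both strands) lay in 5 of the 14 cytosolic members that have a RefSeq promoter entry, in a window of 250 bases before to 50 bases after the start. It lay in 0 of the 13 mitochondrial members with an entry and in 4.51% of all 27025 genes with promoter windows of the same length. The RefSeq windows follow on the strand of the gene in GRCm38.p6, the patched assembly behind mm10, with the element in capitals and the gene's own upstream side to the left, for 4 of the 5 genes:

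Gars (chr6:55037960-55037989, + strand): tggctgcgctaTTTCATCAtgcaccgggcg

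Iars (chr13:49682126-49682155, + strand): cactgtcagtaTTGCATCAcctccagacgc

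Tars (chr15:11399655-11399684, - strand): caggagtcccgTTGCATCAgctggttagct

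Yars (chr4:129189895-129189924, + strand): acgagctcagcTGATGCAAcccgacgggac

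The elements of Gars, Iars and Tars read TTGCATCA or TTTCATCA, which is the searched motif on the opposite strand, and the Yars element reads TGATGCAA on the strand of the gene. From the RefSeq start, they begin at -30 in Gars, 8 in Iars, -15 in Tars and 4 in Yars. The E-box CACGTG, read by MYC with its partner MAX, lay in 4 of the 14 cytosolic members with an entry (Farsb, Iars and Tars among them). It lay in 1 of the 13 mitochondrial ones (Ears2), and in 8.09% of all 27025 genes.

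A match to a motif is a description of the letters and not a bound site. Cars, Hars, Lars, Nars, Rars, Vars, Wars, Hars2 and Pars2 are among the members with no entry in the promoter table.

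The summed level of cytosolic synthetase transcripts was higher in every wound group than in NW. Of the 16 mitochondrial genes, 2, 2 and 1 were called higher at 16 h, 1.5 d and 3 d over NW. The shares of all genes tested were 13.5%, 13.7% and 12%, and these counts are too small to set apart from them. Levels are counts scaled to a common library total by TMM (CPM). The 21 cytosolic genes together took 1648, 1433 and 1595 CPM in NW replicates 1, 2 and 3, against which the wound libraries all stood higher. They took 3882, 4333 and 3553 CPM at 16 h, 3031, 3072 and 3533 CPM at 1.5 d, and 3354, 2775 and 2731 CPM at 3 d. The lowest wound library thus lay above the highest NW library. As group means with SD (n = 3 each), this was 1559 ± 112 CPM in NW, then 3923 ± 392 CPM at 16 h, then 3212 ± 279 CPM at 1.5 d, then 2953 ± 348 CPM at 3 d. The 15 mitochondrial genes other than Lars2, which is described apart, also summed to more in each wound library than in any NW library. Their sum was 219.8 ± 11.3 CPM in NW, then 294 ± 2.94 CPM at 16 h, then 290.2 ± 30.4 CPM at 1.5 d, then 253 ± 5.02 CPM at 3 d. With Lars2 counted in, the mitochondrial sum went the other way by group mean. It was 1219 ± 118 CPM in NW, 958 ± 168 CPM at 16 h, 917 ± 71.5 CPM at 1.5 d and 978 ± 204 CPM at 3 d, and most of it was Lars2.

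**Figure D1:**
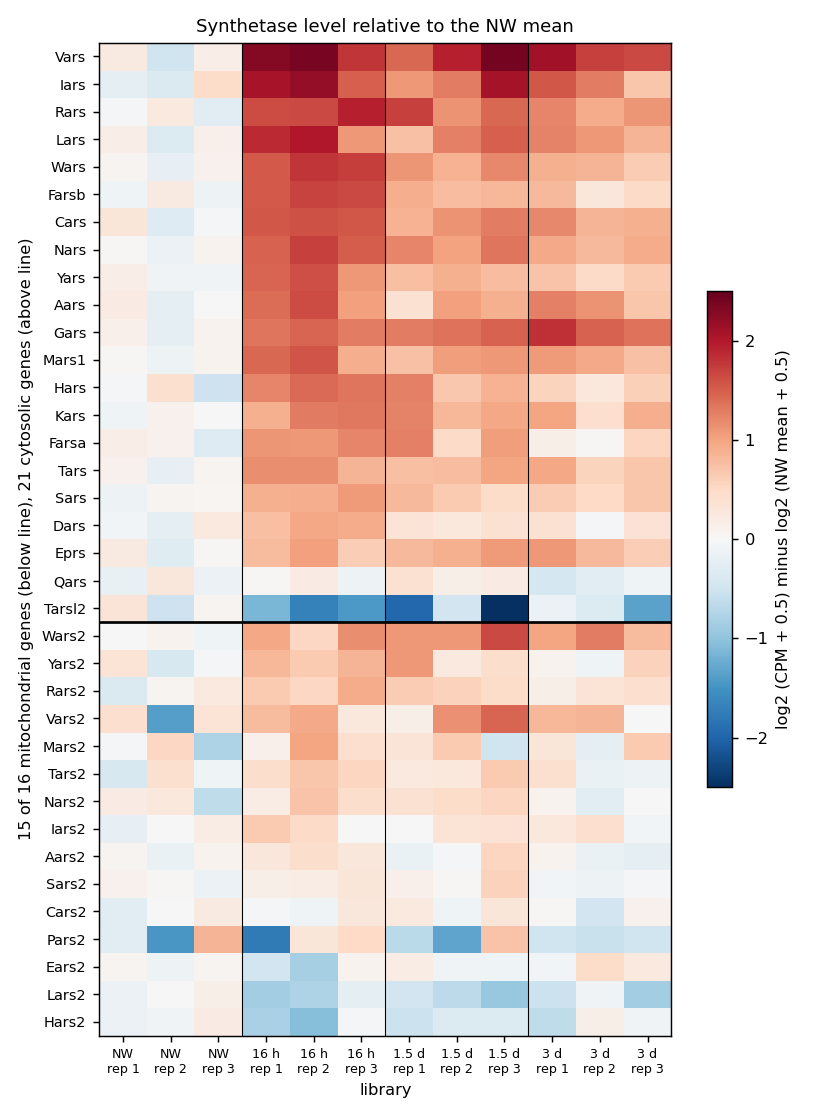
Level of the synthetase genes (rows, 15 of the 16 mitochondrial genes shown) in each of the 12 libraries (columns, NW to 3 d) relative to the NW mean of the gene, as log2 with 0.5 CPM added and colours capped at 2.5 in either direction. The 21 cytosolic genes above the line are red across the 9 wound libraries except for Qars, Tarsl2 and, in 3 d replicate 2, Dars. Most mitochondrial genes below it are paler. Lars2, Hars2 and Pars2 are among those blue in most wound libraries, and Wars2 is red in all 9.

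The summed level of keratinocyte transcripts moved with the groups and stands beside all comparisons with NW. All 18 genes of a keratinocyte marker list were detected in each group. Their sum ranged between 18743 and 34907 CPM in NW libraries and between 8089 and 14222 CPM at 16 h. It ranged between 4024 and 7105 CPM at 1.5 d, and between 929 and 13280 CPM at 3 d. Gene by gene, 7 of the 18 were called lower and 2 higher at 16 h over NW, so not all moved with the sum. The 16 h library nearest to NW in this respect, replicate 1, held 14222 CPM of keratinocyte markers and 3882 CPM of cytosolic synthetases, while replicates 2 and 3 held 4333 and 3553 CPM of those synthetases. The 12 fibroblast markers, led by the collagen genes, summed to 84467 to 185598 CPM in NW, 38568 to 104599 CPM at 16 h, 85500 to 106776 CPM at 1.5 d and 117054 to 236571 CPM at 3 d, and at 16 h over NW 4 of them were called lower and 1 higher. Endothelial markers summed to 8.86 to 16.03 CPM at 16 h and 68.5 to 110.1 CPM in NW, and adipocyte markers to 0.704 to 6.00 CPM at 16 h and 50.3 to 82.8 CPM in NW. Macrophage markers (up to 107 CPM in any library), pericyte and smooth muscle markers (up to 413 CPM, at 3 d), skeletal muscle markers (up to 16.6 CPM) and lymphocyte markers (up to 1.73 CPM, with Cd3e, Cd8a and Ms4a1 at 0 throughout) were scarcer than the cytosolic synthetases. Neutrophil markers reached up to 248 CPM in the wounds and 709 CPM in NW, where 4 of the 9 genes of the list were at 0 and the decoy receptor Il1r2 made up most of the sum. Gene by gene, 4 of the 8 neutrophil markers tested were called higher and 1 lower at 16 h over NW, as were 6 higher and 1 lower of the 13 macrophage and monocyte markers. The part of these other cells in the synthetase results was not tested beyond the fit with the keratinocyte level as a covariate, given below.

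At 16 h, 19 of the 21 cytosolic genes rose against NW and 0 fell, where 13.5% of all 14901 genes tested rose and 11.2% fell. The median change of the 21 was 1.36 on the log2 scale, 2.57-fold, beside -0.037 over all genes tested. The 19 rises spanned 1.76-fold to 4.56-fold, from Eprs, the fused enzyme for glutamate and proline, to Vars, the enzyme for valine. With the keratinocyte marker level as a covariate, 18 of the 21 were called and the median was 1.25, beside 0.03 over all genes. This covariate overlaps with the group, as given below for each time. Leaving out 1 library at a time gave 18 or 19, and Eprs was the gene lost, without 16 h replicate 2 (edgeR adjusted p = 0.0617).

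Vars (chromosome 17, 35000907 to 35016329 in mm10, + strand) had the largest rise of all members at each time. It stood at 328, 345 and 230.3 CPM at 16 h against 77.2, 46.5 and 74.7 CPM in NW. The groups were far apart, with the lowest 16 h library well above the highest NW one (log2 change 2.19, SE 0.29, adjusted p = 0.000258 by the edgeR quasi-likelihood test). Iars (chromosome 13, 49682130 to 49734267, + strand), the isoleucine enzyme and part of the complex, stood at 185, 203 and 125 CPM at 16 h against 36.9, 34.2 and 60.3 CPM in NW. Again no library overlapped, and replicate 3 was the lowest at 16 h for both genes (3.9-fold, edgeR adjusted p = 0.00131).

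Rars (chromosome 11, 35808381 to 35834528, - strand), the arginine enzyme of the complex, stood at 125, 126 and 156 CPM at 16 h and 39.3, 47.7 and 33.0 CPM in NW. Here replicate 3 was the highest of the 16 h libraries (3.39-fold, edgeR adjusted p = 0.000144). Lars (chromosome 18, 42202298 to 42262125, - strand), the leucine enzyme, which in mammals has also been described as a leucine sensor for mTORC1, stood at 186, 204 and 107 CPM at 16 h and 56.4, 39.6 and 55.1 CPM in NW. Its replicate 3 lay far below the other 2 at 16 h, yet above every NW library (3.29-fold, edgeR adjusted p = 0.000924).

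Wars (chromosome 12, 108860030 to 108894174, - strand), the tryptophan enzyme, is the synthetase best known as an interferon-induced gene. It stood at 133, 159 and 152 CPM at 16 h against 48.3, 39.6 and 49.4 CPM in NW, the smallest adjusted p of the members (3.23-fold, log2 change 1.69, SE 0.184, edgeR adjusted p = 6.61e-05). In order of log2 change it came between Lars (1.72) and Farsb (1.63), and the differences among them were not tested. Any part of interferon in its rise was not tested either. Nars, the asparagine enzyme, stood at 422 ± 38.2 CPM at 16 h and 142 ± 11.6 CPM in NW (2.97-fold, edgeR adjusted p = 7.88e-05).

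**Figure D2:**
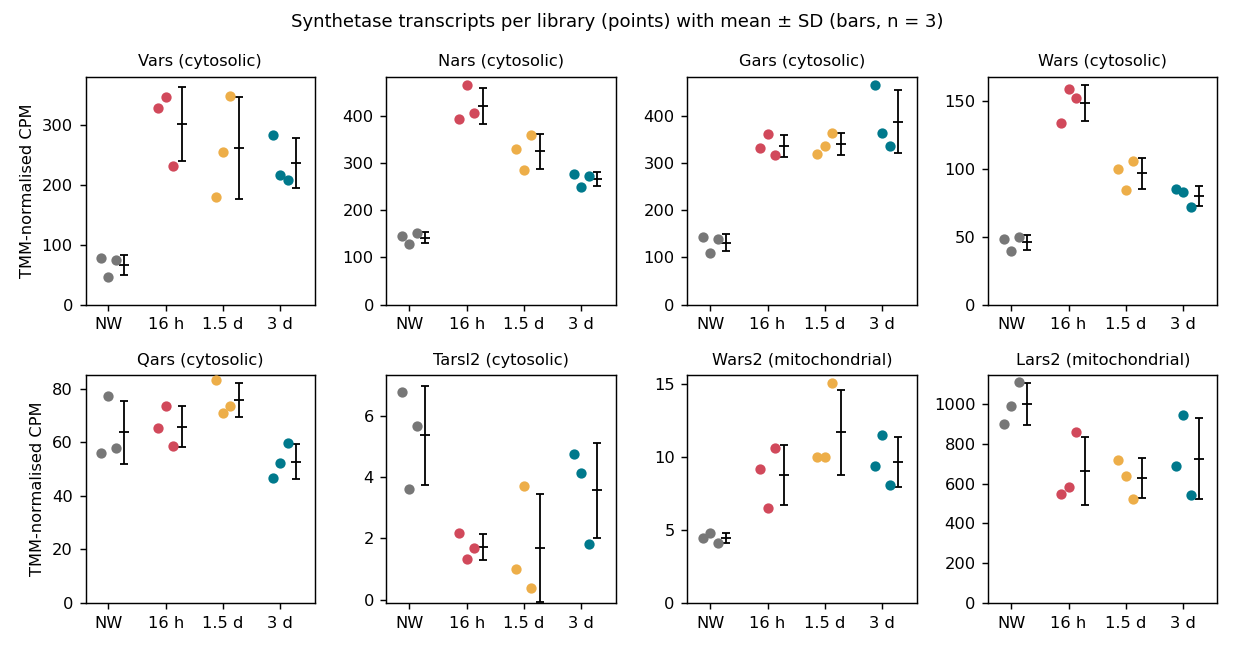
TMM-normalised CPM of 8 synthetase genes in each library (points, replicates 1 to 3 from left to right) with mean ± SD (black, n = 3) for NW, 16 h, 1.5 d and 3 d. Vars, Nars, Gars and Wars lie above NW in all 9 wound libraries, Qars and Tarsl2 do not, Wars2 is higher in the wounds at low levels, and Lars2 has higher CPM than the other genes shown and has its highest mean in NW.

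Qars and Tarsl2 were the 2 cytosolic genes without a call at any time in the fit of all libraries. Qars (chromosome 9, 108508005 to 108515941, + strand), the glutamine enzyme of the complex, stood at 65.4, 73.6 and 58.5 CPM at 16 h and 56.1, 77.3 and 57.9 CPM in NW. The groups overlapped fully (log2 change 0.05, SE 0.196, edgeR adjusted p = 0.894), and the sign turned to -0.041 without 16 h replicate 2. Mammalian mitochondria have no enzyme of this kind and make their glutaminyl-tRNA from misacylated glutamyl-tRNA, so Qars has no partner with a final 2. Tarsl2 (chromosome 7, 65644898 to 65692093, + strand), a less studied relative of the threonine enzyme Tars, was the scarcest cytosolic member.

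Tarsl2 stood at 2.17, 1.33 and 1.68 CPM at 16 h against 6.79, 3.62 and 5.67 CPM in NW, so it lay lower in all 3 wound libraries without passing the test (log2 change -1.63, SE 0.735, edgeR adjusted p = 0.123). At 1.5 d and 3 d its libraries overlapped those of NW, and without replicate 2 of 1.5 d the fall at 1.5 d was called (-2.96, edgeR adjusted p = 0.016). Tars itself, which shares its amino acid, rose 2.1-fold at 16 h (edgeR adjusted p = 0.00157).

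Rises were found in both structural classes and both inside and outside the complex. Class I enzymes without Eprs, which has an active site of each class, had 8 of 9 genes up at 16 h with a median of 1.69. Class II enzymes had 10 of 11 up with a median of 1.19. Of the 8 enzymes of the complex 7 rose (median 1.27), and of the 13 free ones 12 rose (median 1.38). The genes without a call, Qars and Tarsl2, account for the shortfall in each split, and the differences between medians were not tested. Of the scaffold proteins, Aimp2 rose 2.16-fold (edgeR adjusted p = 0.0233), at 63.2 ± 0.581 CPM at 16 h and 29.2 ± 12.9 CPM in NW, a rise not called with the replicate number as a block, nor without replicate 1 or 2 of 16 h or replicate 1 or 3 of NW. Aimp1 (log2 change 0.76) and Eef1e1, also called AIMP3 (0.82), each had an adjusted p of 0.113 with no overlap between the groups.

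All 5 carriers of the ATF4 element (Gars, Iars, Tars and Yars among them) rose at 16 h, and so did 7 of the 9 other cytosolic genes with a promoter entry. The carriers changed by 1.07 to 1.96 with a median of 1.38. The other 9 changed by -1.63 to 1.63 with a median of 0.97, and Qars and Tarsl2 are among them. The cytosolic genes with no promoter entry, which could not be placed on either side, changed by 1.33 (Hars) to 2.19 (Vars). The difference between carriers and other genes was not tested. Farsb, with an E-box and no ATF4 element in the window, rose 3.11-fold, more than 4 of the 5 carriers.

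Aars (chromosome 8, 111033842 to 111055569, + strand), the alanine enzyme, stood at 304, 357 and 233 CPM at 16 h and 132, 96.8 and 116 CPM in NW (2.6-fold, edgeR adjusted p = 0.00155). The 16 h libraries all lay above the NW ones. The transcript of Atf4, which is controlled largely at translation, stood at 308 ± 25.0 CPM at 16 h and 329 ± 38.7 CPM in NW (edgeR adjusted p = 0.822).

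Of the 16 mitochondrial genes, Rars2 and Wars2 rose at 16 h and 0 fell, against the same backgrounds of 13.5% and 11.2%. These counts are too small to set apart from those shares. The median change was 0.45, and 12 of the 16 values were above 0. Wars2 (chromosome 3, 99141090 to 99220203, + strand), the mitochondrial tryptophan enzyme, stood at 9.17, 6.54 and 10.6 CPM at 16 h against 4.46, 4.77 and 4.11 CPM in NW. The NW libraries were tightly grouped and all lower (1.97-fold, edgeR adjusted p = 0.0398). Rars2 (chromosome 4, 34614957 to 34660167, + strand), the mitochondrial arginine enzyme, stood at 28.5, 25.8 and 34.4 CPM at 16 h against 13.7, 18.6 and 21.03 CPM in NW (1.66-fold, edgeR adjusted p = 0.0335). Both calls are close to the threshold. Rars2 was lost without any 1 of the 16 h libraries or without NW replicate 1 or 2, and Wars2 without 16 h replicate 1 or 3, 1.5 d replicate 2 or any 1 of the NW libraries. The number of mitochondrial calls was 0 without 16 h replicate 1 or NW replicate 2, and 1 without any other of these libraries, that call being the fall of Lars2 without 16 h replicate 3. It was 3 without 1.5 d replicate 1.

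Of the remaining mitochondrial genes, Yars2, the tyrosine enzyme, came nearest to a call (log2 change 0.80, edgeR adjusted p = 0.0618). Against the majority of their compartment went Hars2 (-0.60), Lars2 (-0.59), Ears2 (-0.38) and Pars2 (-0.04). Ears2, the mitochondrial glutamate enzyme, stood at 5.87, 4.46 and 8.86 CPM at 16 h and 8.70, 7.57 and 8.69 CPM in NW, an overlap through replicate 3. Pars2, the mitochondrial proline enzyme, ranged from 0.0667 to 2.95 CPM over all 12 libraries and from 2 to 119 counts, too few to read a direction.

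Hars and Hars2 lie head to head on chromosome 18, Hars at 36766528 to 36783205 on the - strand and Hars2 at 36783209 to 36792560 on the + strand. Hars stood at 125, 144 and 136 CPM at 16 h against 52.7, 71.0 and 37.4 CPM in NW (2.51-fold, edgeR adjusted p = 0.00195). Hars2 stood at 9.01, 7.38 and 15.5 CPM at 16 h against 14.5, 15.03 and 18.7 CPM in NW (edgeR adjusted p = 0.195). The histidine enzymes of cytosol and mitochondria thus gave log2 changes of 1.33 and -0.60 from adjoining starts, with the NW and 16 h libraries apart for Hars and overlapping for Hars2. The difference between these changes was not tested.

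Lars2, the mitochondrial leucine enzyme (chromosome 9, 123366927 to 123462675, + strand), had the highest CPM of the members in every group mean. It stood at 549, 583 and 861 CPM at 16 h against 899, 987 and 1112 CPM in NW. All 3 wound libraries were lower, without a call (log2 change -0.59, SE 0.25, edgeR adjusted p = 0.103), and without replicate 3 of 16 h it was called (-0.82, adjusted p = 0.0474). Per kilobase of exon its level was 149.6 ± 38.6 CPM at 16 h and 225 ± 24.1 CPM in NW, when the next mitochondrial member in NW, Iars2, stood at 14.2 ± 1.97. On that scale Nars (159 ± 14.4 CPM per kilobase) stood above Lars2 at 16 h. Near its 3' end the Lars2 transcript resembles other annotated transcripts: 97 bases match AA474408 at 94.8% identity and 72 bases match Gm15564 at 98.6%. The table gives 1 count per gene and no position within it, so how many fragments come from that stretch was not tested, and the level of Lars2 is uncertain for this reason.

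Set side by side by amino acid, the cytosolic enzyme changed more than its mitochondrial counterpart in 14 of 14 pairs at 16 h. The widest gaps were for leucine (1.72 for Lars and -0.59 for Lars2) and histidine. At 1.5 d and 3 d the same order held in 12 of 14 pairs, with tryptophan among the exceptions both times. Per kilobase of exon, the cytosolic level was the higher of the pair in 13 of 14 pairs at 16 h and 12 of 14 in NW. The leucine pair went the other way in both groups and the isoleucine pair in NW, with Iars at 38.9 ± 9.34 CPM per kilobase at 16 h and 9.96 ± 3.27 in NW, beside Iars2 at 18.9 ± 4.15 at 16 h and 14.2 ± 1.97 in NW.

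**Figure D3:**
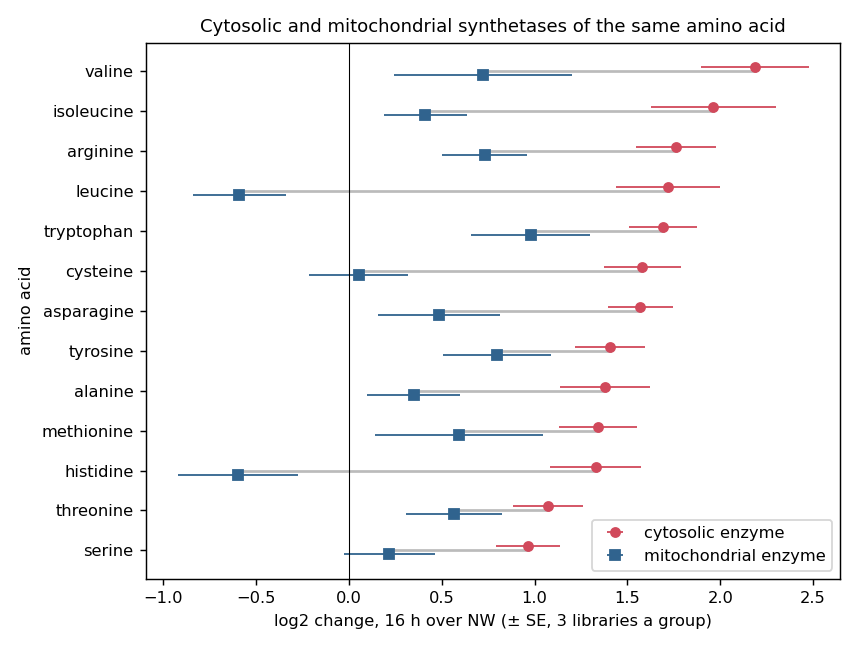
Log2 change at 16 h over NW, with its SE, for 13 of the 14 amino acids served by separate cytosolic (circles) and mitochondrial (squares) enzymes, ordered by the cytosolic change. Each cytosolic point lies to the right of its mitochondrial partner, and only leucine and histidine have a mitochondrial point clearly left of 0.

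Among the cytosolic members, levels per kilobase of exon spread widely. At 16 h the highest were Nars at 159 ± 14.4 and Gars, the glycine enzyme, at 141 ± 9.58 CPM per kilobase, with overlapping libraries, and Eprs stood at 84.1 ± 11.7. In NW the highest were Gars at 54.7 ± 7.54, Nars at 53.6 ± 4.36 and Eprs at 47.7 ± 8.49 CPM per kilobase, which do not differ beyond their spread. The lowest level was that of Tarsl2, 0.540 ± 0.133 CPM per kilobase at 16 h and 1.68 ± 0.504 in NW.

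At 1.5 d, 18 of the 21 cytosolic genes were still called above NW and 0 below, where 13.7% of all genes rose and 10.8% fell. The median change was 0.97, beside 0.01 over all genes. Dars, the aspartate enzyme, was no longer called (log2 change 0.33, edgeR adjusted p = 0.225), nor were Qars and Tarsl2. Vars stood at 179.7, 254 and 349 CPM at 1.5 d, a wide range that still cleared NW (3.94-fold, edgeR adjusted p = 0.000503). Gars (chromosome 6, 55038001 to 55079504, + strand) stood at 319, 336 and 364 CPM at 1.5 d against 143, 110.1 and 139 CPM in NW, with little spread at either time (2.6-fold, edgeR adjusted p = 0.000356). Iars rose 2.96-fold and Rars 2.75-fold.

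With the keratinocyte marker level as a covariate, 4 cytosolic genes were called at 1.5 d (Vars, Rars, Gars and Nars) and 17 had an unadjusted p under 0.05. The median change in that fit was 0.84, beside 0.09 over all genes, and 20 of 21 values were above 0. The share of all genes called in that fit is not given here, so its counts lack a background. The keratinocyte sum was lower in all 3 libraries at 1.5 d (at most 7105 CPM) than in any in NW (at least 18743 CPM), so this covariate overlaps with the group itself. The same holds at 16 h (at most 14222 CPM) and at 3 d (at most 13280 CPM).

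Of the mitochondrial genes, 2 were called at 1.5 d, both upward and Wars2 among them, against the backgrounds of 13.7% and 10.8%. Wars2 stood at 10.03, 9.998 and 15.1 CPM at 1.5 d, above every NW library (2.63-fold, edgeR adjusted p = 0.00744). Neither gene was called with the keratinocyte covariate, and Wars2 was the only call without replicate 3 of 1.5 d or replicate 1 or 3 of NW.

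At 3 d, 15 cytosolic genes were called above NW and 0 below, where 12% of all genes rose and 9.15% fell, and the median change was 0.80 beside 0.00 over all genes. Vars again led, at 283, 216 and 208 CPM at 3 d (3.57-fold, edgeR adjusted p = 0.000857). Gars followed, at 464, 363 and 336 CPM (2.96-fold, edgeR adjusted p = 0.000161), its highest mean of any group, with replicate 1 above the others. Farsa, Farsb, Hars, Dars, Qars and Tarsl2 were not called.

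The count at 3 d rested in good part on replicate 1, the 3 d library with the lowest keratinocyte sum (929 CPM) and the highest level for 17 of the 21 cytosolic genes. Without it 8 were called, Eprs, Iars, Kars, Lars, Sars, Tars and Yars being lost, while the median change was 0.72. With the keratinocyte covariate 2 were called (Vars and Gars), 10 had an unadjusted p under 0.05, and the median was 0.63, beside 0.08 over all genes. These counts too lack the share of all genes called in that fit. In the mitochondrial set Wars2 alone was called, at 9.36, 11.5 and 8.09 CPM at 3 d (2.17-fold, edgeR adjusted p = 0.0257), and it was not called with that covariate, nor without replicate 1 or 2 of 3 d or any 1 of the NW libraries. The mitochondrial count was then 0, or 1 without NW replicate 2, and it was 2 without 1.5 d replicate 3. The 16 mitochondrial genes had a median of 0.13, and 9 of them were above 0. Below 0 were Pars2 (-0.75), Lars2 (-0.46), Hars2 (-0.16), Aars2 (-0.10), Cars2 (-0.09), Sars2 (-0.07) and Nars2 (-0.05), none of them called.

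**Figure D4:**
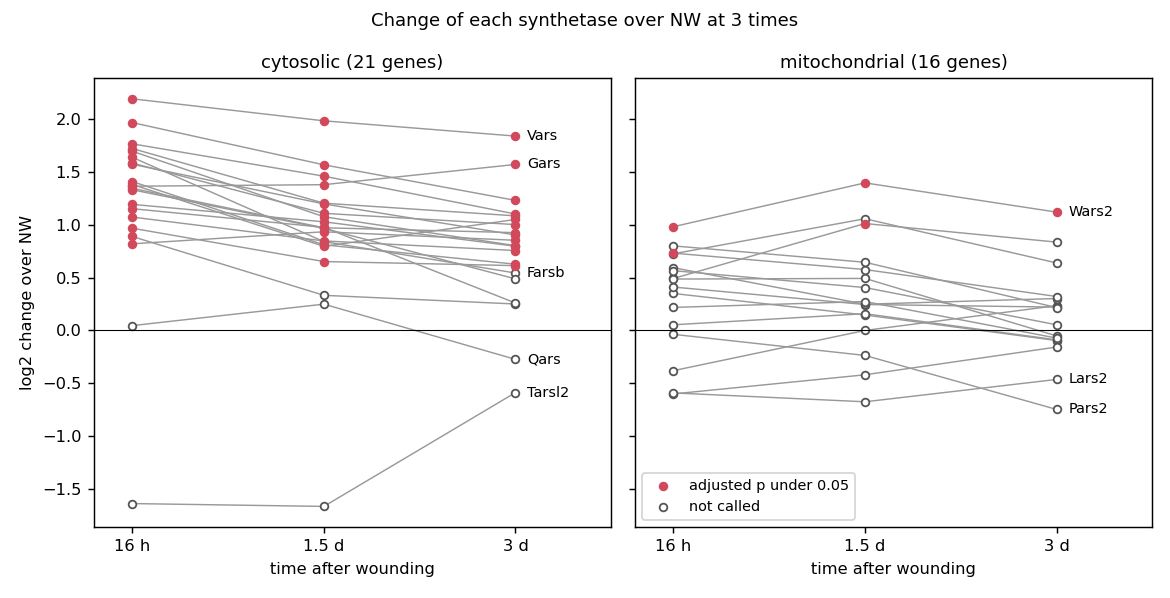
Log2 change over NW at 16 h, 1.5 d and 3 d for each cytosolic (left) and mitochondrial (right) gene; filled red points passed an adjusted p under 0.05 in the edgeR quasi-likelihood test and lines join the values of a gene. The 3 comparisons share the same NW libraries. Most cytosolic lines slope down from 16 h, Gars does not, and most mitochondrial points are open.

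The cytosolic levels were highest at 16 h for 17 of the 21 genes by group mean. The others were Eprs and Qars, highest at 1.5 d, Gars at 3 d and Tarsl2 in NW. Among mitochondrial genes 6 had their highest mean at 16 h, 6 at 1.5 d, 1 at 3 d (Ears2) and 3 in NW (Hars2, Lars2 and Pars2).

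Direct comparison of the wound times showed falls in some cytosolic genes after 16 h. At 3 d against 16 h 6 were lower and 0 higher, where 3.67% of all genes were lower and 5.86% higher, and the median of the 21 was -0.58. The 6 were Farsb, Wars, Farsa, Hars, Yars and Nars. None of the 8 enzymes of the complex was called, but 4 of them had an unadjusted p under 0.05, their median was -0.53 beside -0.58 for the 13 free enzymes, and the difference was not tested. Of these 4, Dars (-0.64, edgeR adjusted p = 0.0522) and Rars (-0.66, edgeR adjusted p = 0.0663) gave changes near that of Nars (-0.67). The 6 genes from Farsb to Nars are listed because they were called, and Farsb is described further although it was chosen after its values were seen. Farsb (chromosome 1, 78417958 to 78488897, - strand), the beta subunit of the phenylalanine enzyme, stood at 93.1, 65.2 and 74.1 CPM at 3 d against 156, 172 and 168 CPM at 16 h. The 3 d libraries were all well below those at 16 h (2.13-fold lower, edgeR adjusted p = 0.00325). Farsa, the alpha subunit, was 1.85-fold lower (edgeR adjusted p = 0.034).

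Wars stood at 85.2, 82.6 and 71.5 CPM at 3 d, all below its libraries at 16 h (1.86-fold lower, edgeR adjusted p = 0.00808), while 3 d was still 1.74-fold above NW (edgeR adjusted p = 0.00745). Yars, Hars and Nars were 1.72-fold, 1.79-fold and 1.59-fold lower (edgeR adjusted p = 0.0181, 0.0445 and 0.0286). Of the 20 alternative fits named below, these calls held in 16, 7 and 10, and that of Farsa in 13. Farsb and Wars were called in every fit that left out 1 library. The count fell to 2 without replicate 1 or 2 of 16 h, or without replicate 1 or 2 of 3 d, and to 3 without replicate 3 of 16 h. In this comparison 0 mitochondrial genes were called by edgeR, 0 had an unadjusted p under 0.05 and DESeq2 called 0.

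Between neighbouring times little was called. At 1.5 d against 16 h Farsb was the only member called, 1.74-fold lower (edgeR adjusted p = 0.0401), where 0.47% of all genes were lower and 2.39% higher. It stood at 100.3, 90.8 and 94.4 CPM at 1.5 d, below all libraries at 16 h. The call was lost in 9 of the 12 fits that left out 1 library, those without any 1 library of 16 h or of 1.5 d, 3 d replicate 3, or NW replicate 1 or 3. Unadjusted, 7 cytosolic and 0 mitochondrial genes had a p under 0.05, and DESeq2 called 3 cytosolic and 0 mitochondrial genes. At 3 d against 1.5 d 0 members were called, where 0.101% of all genes were higher and 0.0403% lower. Qars and Farsa had an unadjusted p under 0.05, both lower at 3 d, and no mitochondrial gene did. DESeq2 also called 0 members there.

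Over all 4 groups together, 20 of the 37 members differed by the edgeR F test, 19 cytosolic and Wars2, where 29.7% of all genes tested did. The 17 without a call were Qars, Tarsl2 and the 15 mitochondrial genes other than Wars2. Rars2 had an adjusted p of 0.0952.

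Within each group 1 library had levels that ran against exon length relative to the other 2, and this bears on members with long transcripts. The level of each cytosolic gene was set against the mean of the group's other 2 libraries and ranked against exon length, which runs from 1829 bases for Farsa to 4927 for Eprs. Spearman's rho over the 21 genes was -0.74 in NW replicate 2, -0.59 in 16 h replicate 3, -0.79 in 1.5 d replicate 1 and -0.73 in 3 d replicate 3. It lay between 0.31 and 0.62 in the other 8 libraries. Over all 14901 genes the same 4 libraries gave -0.46 to -0.36 and the others 0.13 to 0.39. These correlations are across genes of 1 library and carry no test.

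The 3 deviations of a gene in a group sum to 0 by construction, so that each group tends to hold rank correlations of both signs. The low values of Vars, Iars and Lars in 16 h replicate 3, given above, are instances, while Rars, with 2131 bases of exon, was highest in that library. Leaving out these 4 libraries together, a choice made after seeing the data, left 19, 18 and 15 cytosolic calls at 16 h, 1.5 d and 3 d over NW. The medians were then 1.45, 0.96 and 0.79. Over the 21 genes the change over NW itself gave a rho with exon length of 0.20 at 16 h, 0.10 at 1.5 d and 0.41 at 3 d.

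**Figure D5:**
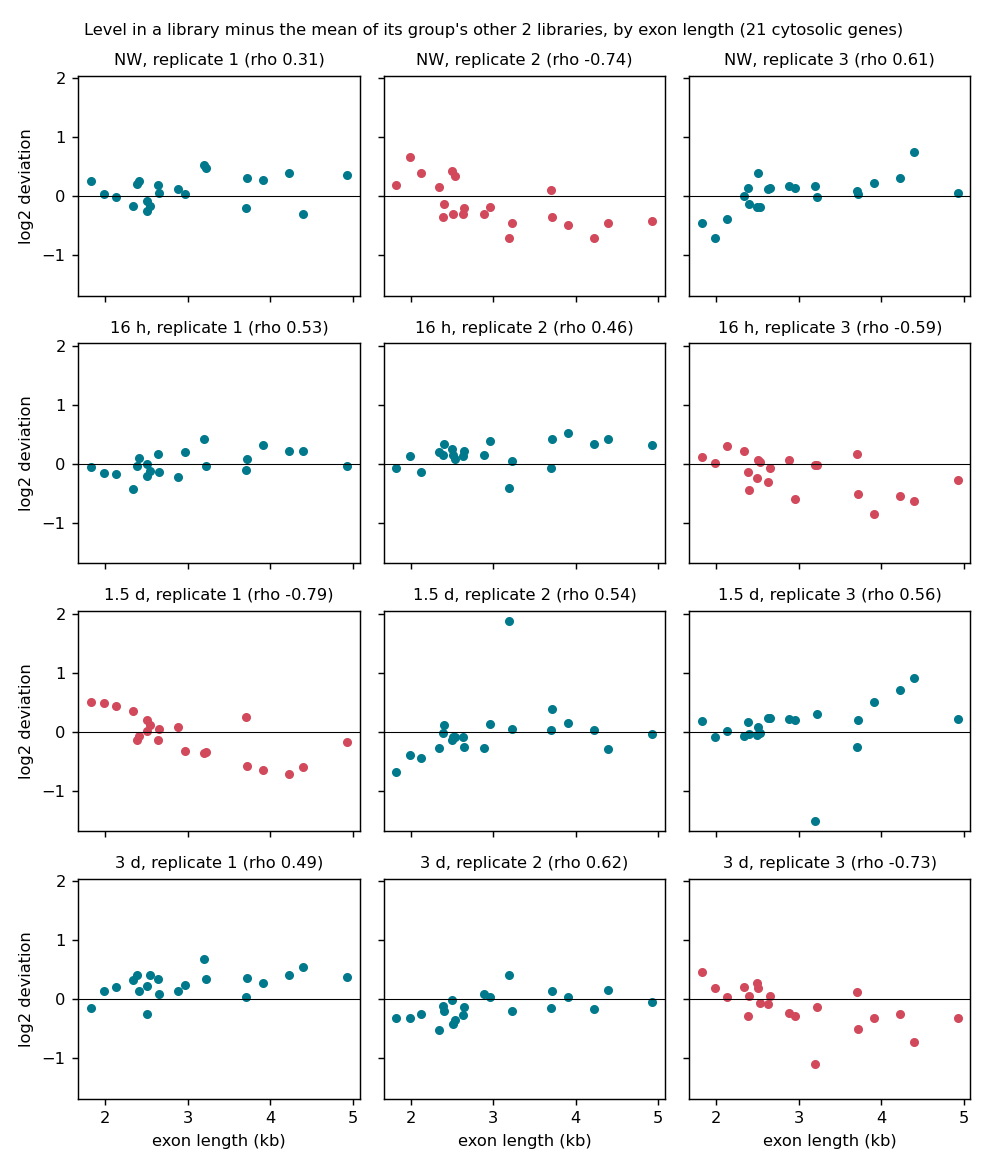
Each panel is 1 library and each point 1 of the 21 cytosolic genes, with exon length in kilobases across and the log2 level minus the mean of the group's other 2 libraries up. Red panels have a negative rank correlation, between -0.79 and -0.59, and there is 1 in each group.

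Genes that prepare, carry or receive tRNA rose in part at 16 h, read against the backgrounds of 13.5% up and 11.2% down. Of 20 tested genes of tRNA processing and export 7 rose and 0 fell (median 0.67). Xpot, the exportin that takes mature tRNA to the cytosol, stood at 131 ± 41.6 CPM at 16 h and 51.8 ± 13.7 in NW (log2 change 1.34, edgeR adjusted p = 0.00743). Elac2, which trims the 3' ends of tRNA precursors, changed by 1.22, Ssb, the La protein that binds them, by 0.92, and Ddx1, of the tRNA ligase complex, by 0.74. Of 24 genes of RNA polymerase III and its factors, which transcribe tRNA genes, 7 rose and 0 fell (median 0.46). They included the subunits Polr3b (1.50), Polr3c (1.09) and Polr3e (0.80). With the keratinocyte covariate both lists had 3 calls. The first had 4 without 16 h replicate 2, and the second had 3, 3 and 4 without replicates 1, 2 and 3 of 16 h and 3 and 2 without replicates 1 and 3 of NW.

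Downstream of charging, the elongation factor subunits Eef1d (1.33) and Eef1g (1.18) rose, of 4 tested (Eef1g not without 16 h replicate 3), while Eef1a1 (-0.10), which carries charged tRNA to the ribosome, and Eef1b2 (-0.23) were not called. Of 16 partners of mitochondrial tRNA charging and translation 3 rose and 0 fell (median 0.49), where 13.5% of all genes tested rose and 11.2% fell. The mitochondrial elongation factor Gfm1 stood at 65.6 ± 7.18 CPM at 16 h and 22.1 ± 0.111 in NW (log2 change 1.57, edgeR adjusted p = 0.000152), Tufm, another such factor, changed by 1.15 and the tRNA-modifying enzyme Gtpbp3 by 1.23. Gtpbp3 was lost, which left 2 calls, without replicate 1 or 3 of 16 h or replicate 2 or 3 of NW. Of 4 genes related to enzymes that clear mischarged tRNA, Prorsd1 fell (-1.05, edgeR adjusted p = 0.0165) and 0 rose; it was lost without replicate 1 or 2 of 16 h and with the keratinocyte covariate. None of the 3 related genes that the symbol rule leaves out and the table holds was called: the mitochondrial phenylalanine enzyme Fars2 (-0.04), Pstk (-0.59) and Sepsecs (-0.09), which both make selenocysteinyl-tRNA. For these 3, 0 had an unadjusted p under 0.05, and DESeq2 called 0.

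Genes of the amino acid response changed in both directions at 16 h, where 13.5% of all genes tested rose and 11.2% fell. Of 13 of its regulators 3 rose and 1 fell (median 0.47), counts too small to set apart from those shares. Risers were the eIF2 kinases Eif2ak2 (1.29) and Eif2ak1 (0.87) and the eIF2 subunit Eif2s1 (1.05), and Cebpg, a partner of ATF4, fell (-0.71). Cebpg and Eif2ak1 were lost without 16 h replicate 2 or NW replicate 2, which left 2 calls, and Cebpg also without 16 h replicate 3 or NW replicate 1. Without 16 h replicate 3 there were 6 calls in this list, and 1 regulator was called with the keratinocyte covariate. Of 26 genes listed as ATF4 targets, synthetases left out, 8 rose and 5 fell (median 0.42). The amino acid transporter Slc7a5 (2.31) and asparagine synthetase, Asns (1.77), rose, as did the mTORC1 inhibitor Ddit4 (2.01). Pycr1, of proline synthesis, stood at 11.9 ± 0.624 CPM at 16 h and 61.4 ± 18.5 in NW and so fell (-2.36, edgeR adjusted p = 7.5e-05).

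Exons of 3 members overlap another gene, and a fragment from the shared part was not counted for either. Farsb shares 265 bases, 10.4% of its exon length, with Sgpp2, Iars2 shares 2.95% with Rab3gap2, and Mars1 shares 2.29% with Ddit3, a stress-induced gene at 12.6 ± 0.422 CPM at 16 h and 25.0 ± 3.85 in NW. Fragments were counted without regard to strand, so sense and antisense fragments could not be separated in these counts.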

How the data were processed

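RNA was measured in 12 libraries of sorted fibroblasts, 3 mice in each of 4 groups. The deposited values are raw counts of fragments per gene symbol, made by the authors with featureCounts 2.0.0 on exons (refGene, mm10), per the file headers, with strand, multi-mapping and overlap options at their defaults. STAR, SAMtools, Subread and Partek are named without versions in the submitters' processing notes. Libraries held 26389453 to 43493475 counted fragments, so that 3 counts stand for 0.069 to 0.114 CPM, which covers counting error only. Log2 CPM correlated at 0.916 to 0.956 within groups. Squared differences between 2 replicates, averaged over genes, were at least 82.1 times those expected from counting alone.

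After filterByExpr, 14901 genes were scaled by TMM and fitted over all 12 libraries with edgeR 4.0.16 in R 4.3.3 (robust quasi-likelihood). All 6 pairwise comparisons and an F test over the groups had Benjamini-Hochberg adjustment over all genes, with calls at an adjusted p under 0.05. All adjusted p values are from this edgeR test unless another is named. An SE is approximate, being back-calculated from the log2 change and F. The fit was tested on simulated data. Levels between genes are TMM CPM per kilobase of the deposited exon length. Promoters came from RefSeq (GRCm38.p6), 27 of 37 members matched by symbol, and transcript similarity from blastn 2.17.0.

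Members, gene lists (9 of partners, 9 of cell types) and tests were chosen with earlier results of these data known. Genes were named by a rule, many with values per library, though not at every time. It took, for each time over NW and each compartment, the called genes with the 4 largest rises and falls. It also took Wars, genes against their compartment's majority and, of each partner list, up to 4 with the smallest p at 16 h. Some genes and sequences that this rule takes are not reported here. Alternatives were DESeq2 1.42.0 size factors, library totals, the DESeq2 test, no filter, 2 groups per fit, a replicate block, a keratinocyte covariate, each library left out, and, added later, 4 libraries left out together.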

Additional observations from a re-analysis of the deposited data

How the results depend on the processing

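The 19 cytosolic calls at 16 h over NW stayed between 18 and 19 in all alternatives, and the 18 at 1.5 d between 17 and 18 except with the keratinocyte covariate, which left 4, and 2 of the 15 at 3 d. The cause was not tested for these or the other differences here. The share of all genes called with the keratinocyte covariate is not given, so none of the counts from that fit has a background. Mitochondrial counts were small. At 16 h over NW they were 0 with no filter and with 2 groups per fit, and 1 with the keratinocyte covariate and without the 4 length-dependent libraries. At 1.5 d over NW they were 4 with DESeq2, 4 without those 4 libraries, 1 with 2 groups per fit and 0 with the keratinocyte covariate. At 3 d over NW they were 2 with DESeq2 and 0 with library totals, 2 groups per fit, the keratinocyte covariate or without the 4 libraries. For 1.5 d over 16 h cytosolic calls were 3 with DESeq2 and 0 with no filter, 2 groups per fit or without the 4 libraries. At 16 h over NW, 2 scaffold genes were called with 2 groups per fit, and with the keratinocyte covariate 0 proofreading genes, 3 of tRNA processing, 3 of RNA polymerase III and 1 amino acid response regulator. Scaling by library totals shifted the median of all genes by -0.11 at 3 d over NW and by -0.17 at 3 d over 16 h. Qars at 16 h over NW ranged from -0.041 (without 16 h replicate 2, edgeR adjusted p = 0.936) to 0.21 (without NW replicate 2) when 1 library was left out.

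Leaving out 1 library gave cytosolic counts of 18 to 19, 17 to 18 and 8 to 16 at 16 h, 1.5 d and 3 d over NW, 0 to 1 for 1.5 d over 16 h and 2 to 6 for 3 d over 16 h. Mitochondrial counts over NW were 0 to 3, 1 to 2 and 0 to 2. The F test gave 18 to 21 members. The lists ranged from 0 to 2 (scaffold), 2 to 4 (mitochondrial partners), 0 to 1 (proofreading), 4 to 9 (tRNA processing), 2 to 7 (RNA polymerase III), 1 to 2 (elongation factor 1), 2 to 6 (regulators) and 9 to 15 (ATF4 targets).

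Groups share replicate numbers, but same-numbered libraries did not deviate together (correlations -0.172 to 0.168), so the numbers were not taken as pairs. With a replicate block the cytosolic calls over NW were 19, 18 and 14, for 3 d over 16 h 3 and for 1.5 d over 16 h 0. The mitochondrial count at 16 h over NW was 1, and scaffold and RNA polymerase III calls were 0 and 4.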
